A study of Mus musculus with 6 samples.

Results

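Glutamate and GABA are the main excitatory and inhibitory transmitters of the brain, and each acts through families of receptor subunits encoded by separate genes. The genes described here are all those of the following families, taken by gene symbol: the ionotropic glutamate receptor subunits of the AMPA (*Gria*), kainate (*Grik*) and NMDA (*Grin*) type, the metabotropic glutamate receptors (*Grm*), the GABA-A receptor subunits (*Gabra*, *Gabrb*, *Gabrg*, *Gabrd*, *Gabre*, *Gabrp*, *Gabrq* and *Gabrr*) and the GABA-B receptor subunits (*Gabbr*). They were 45 of the 53379 genes in the deposited table, 24 for glutamate and 21 for GABA.

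AMPA and kainate receptors are cation channels that open when glutamate binds, while NMDA receptors also need glycine or D-serine, and the metabotropic receptors signal through G proteins. GABA-A receptors are chloride channels built from several subunits around one pore, and GABA-B receptors are obligate pairs of G protein-coupled subunits. Neural progenitors carry some of these receptors before any synapse exists, and in such cells GABA and glutamate are known to act on proliferation and migration.

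RNA was measured in neural stem cells (NSCs) grown as neurospheres with EGF and bFGF from the telencephalic cortex of E14.5 mouse embryos. The embryos were homozygous for a *Tbl1xr1* allele with LoxP sites around exon V, so that all libraries shared this allele. *Tbl1xr1* encodes a subunit of the NCoR/SMRT corepressor complexes. Cells received a lentivirus with GFP only (control replicates 1, 1_1 and 2) or with Cre and GFP (Cre replicates 2, 2_2 and 3), and GFP positive cells were sorted, giving 3 libraries per group. No label says which libraries came from separate cultures, so p-values measure only the spread between these libraries, which may be technical.

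The libraries held 7510615 to 11161497 reads on genes in control and 11893230 to 14828100 in the libraries labelled Cre. All values given below are normalized counts, that is reads divided by 1 size factor per library, unless a sentence says reads or per kb. Values given as reads are not corrected for depth, which was higher in every library labelled Cre. Control replicates 1, 1_1 and 2 held 2522, 2190 and 2721 for the whole of *Tbl1xr1*, and Cre replicates 2, 2_2 and 3 held 3774, 3463 and 2905 (log2 fold change 0.45, limma adjusted p = 0.06), so it was not lower where Cre was given, although counts over the whole gene do not isolate exon V. For cells sorted in this way, the paper reports genotyping by PCR, and loss of *Tbl1xr1* mRNA by RT-qPCR and of its protein by Western blot. Of the neural stem cell markers, 10 of 10 were above the filter, with a summed level of 33831 to 37734 in control and 33561 to 35322 in the libraries labelled Cre, and of these only *Nes* fell. Neuron markers summed to 17752 to 18871 in control and 15310 to 17312 in the libraries labelled Cre. *Map2* and *Gap43* made up most of this sum, with means of 9210 and 8711 in control and 10541 and 5196 in the libraries labelled Cre. Of 9 neuron markers tested, *Elavl4* was called higher (log2 fold change 2.32, limma adjusted p = 3.7e-05) and *Gap43* lower (-0.76, limma adjusted p = 0.00975). *Stmn2* had no read, and *Gad2* and *Slc17a7* had no more than 1 read in any library. Microglia markers summed to between 162 and 273 in all libraries, of which *Csf1r* alone held 154 to 264. *Tmem119* and *C1qa* had no read, *Aif1*, *Cx3cr1* and *Itgam* had at most 3 reads and *P2ry12* at most 8 in any library. Endothelial and mural markers summed to 22.7 to 40.4 in control and 12.1 to 14.5 in the libraries labelled Cre, and fibroblast markers to 0.92 to 5.85 and 0.69 to 20.6.

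Most receptor genes were scarcely present in these cells. Of the 45 genes, 19 reached the mean of 10 normalized counts over the 6 libraries that was needed for the test, 13 for glutamate and 6 for GABA. By limma with Benjamini-Hochberg adjustment at 0.05, 9 of them differed, beside 9.96% of the 14840 genes tested in all. The level rose for 6 (4.74% of all tested genes rose) and fell for 3 (5.22% of all tested genes fell). The genes that rose were *Gria2*, *Gria3*, *Gria4*, *Grin3a*, *Grm5* and *Gabbr1*, and those that fell were *Grin2a*, *Grin2b* and *Gabra2*. At an unadjusted p under 0.05 there were 12 of the 19, beside 25.5% of all tested genes. In 12 genes, too, the libraries of the groups did not overlap, 6 in each direction, compared with 30.3% of all tested genes. Among the 19, *Grin2a* and *Grin2b* passed the filter only through their control level and *Grin1* only through the level in the libraries labelled Cre, so the counts over the 19 are a description. The median log2 fold change of the 19 was 0.16, with a median of -0.001 over all tested genes.

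**Figure D1:**
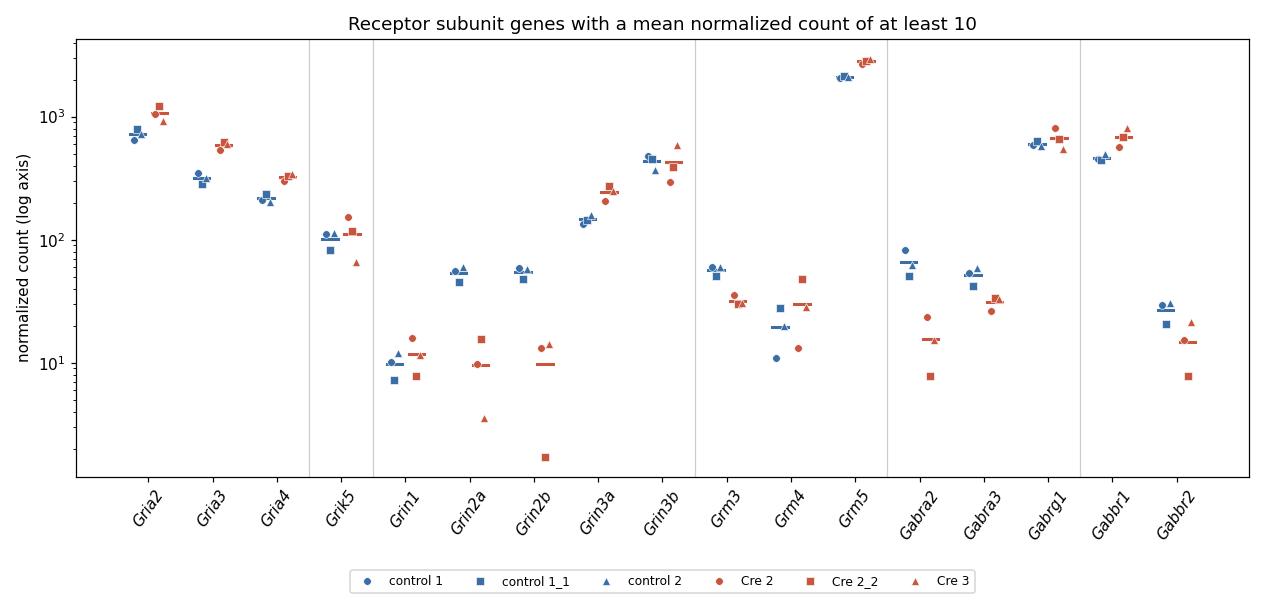
Normalized counts (log axis) of 17 of the 19 tested receptor subunit genes in each of the 6 libraries, with points for libraries and lines for group means. *Grm5* lies highest, from 2077 to 2951, and *Grin2a*, *Grin2b* and *Gabra2* are the genes whose libraries labelled Cre sit lowest relative to control.

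Promoters are shown for the genes that rose or fell most in each transmitter system and had an entry in the RefSeq table (GRCm38.p6), 250 bases before to 50 after the start, read 5′ to 3′ on the strand of the gene. *Gabra2*, on the minus strand at chr5:71095800-71096099, was the GABA receptor gene that fell. *Gabbr1*, on the plus strand at chr17:37045716-37046015, was the GABA receptor gene that rose. *Gria4*, on the minus strand at chr9:4796185-4796484, was the glutamate receptor gene with the next largest rise after *Gria3* and *Grin3a*. Capitals mark the GC box GGGCGG or its reverse complement. *Gria3*, *Grin2a*, *Grin2b* and *Grin3a* had no entry.
Gabra2: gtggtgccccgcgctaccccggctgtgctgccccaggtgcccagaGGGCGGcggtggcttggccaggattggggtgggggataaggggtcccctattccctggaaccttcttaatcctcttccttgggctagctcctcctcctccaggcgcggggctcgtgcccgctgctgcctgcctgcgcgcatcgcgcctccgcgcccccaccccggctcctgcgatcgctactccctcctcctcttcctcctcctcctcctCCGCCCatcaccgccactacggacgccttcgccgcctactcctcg
Gabbr1: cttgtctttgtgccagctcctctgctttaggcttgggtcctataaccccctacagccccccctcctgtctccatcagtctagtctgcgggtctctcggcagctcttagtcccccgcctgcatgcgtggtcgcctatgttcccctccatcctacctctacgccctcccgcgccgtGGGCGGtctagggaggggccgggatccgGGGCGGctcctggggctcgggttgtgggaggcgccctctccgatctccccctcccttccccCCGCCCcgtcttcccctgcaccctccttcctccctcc
Gria4: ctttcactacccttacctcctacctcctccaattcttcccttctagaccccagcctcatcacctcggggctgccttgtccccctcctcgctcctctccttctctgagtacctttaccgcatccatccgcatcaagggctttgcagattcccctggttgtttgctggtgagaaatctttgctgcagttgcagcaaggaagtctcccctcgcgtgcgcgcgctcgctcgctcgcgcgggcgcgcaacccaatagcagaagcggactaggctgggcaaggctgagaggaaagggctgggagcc

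The *Gabra2* window held 2 GC boxes and 70% GC, the *Gabbr1* window held 3 and 67.3% GC, and the *Gria4* window held none and 59.7% GC. Across 39 entries for 32 of the 45 receptor genes, 19 (48.7%) held a GC box, the letters bound by Sp family factors, as did 35.7% of all 32851 promoters in the table. The median GC content was 59.7% over the receptor entries and 52.7% over all promoters. The letters AGGTCA, a nuclear receptor half-site, were found on either strand in 3 receptor entries (7.69%; 16.3% of all promoters), and the proneural E-box CAGCTG in 1 (2.56%; 16.3%). The cAMP response element TGACGTCA was in none (1.79% of all promoters), and the left half-site of REST, TTCAGCACC, in 1, that of *Grm2* (0.371% of all promoters). These are matches of letters and no measure of binding.

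The AMPA receptor genes that were tested rose together. *Gria2* (chr3:80681450-80804227, GRCm38), whose edited transcript makes AMPA receptors impermeable to calcium, was at 645, 787 and 727 in control (replicates in the order 1, 1_1, 2) and at 1058, 1231 and 927 in the libraries labelled Cre (in the order 2, 2_2, 3), an order kept for the genes that follow. The groups did not overlap, with means of 719.7 ± 71.2 and 1072 ± 153 (SD, n = 3 each), a log2 fold change of 0.57 (SE 0.14) and an adjusted p of 0.0267 by limma. *Gria3* (chrX:41400819-41678601) was at 351, 285 and 317 in control and at 534, 619 and 596 in the libraries labelled Cre. These ranges were the farthest apart of the family, with a log2 fold change of 0.87 (SE 0.14, 1.83-fold, 95% interval 0.57 to 1.18, limma adjusted p = 0.00301). *Gria4* (chr9:4417893-4796234) was at 211, 236 and 204 in control and at 298, 330 and 342 in the libraries labelled Cre. It did not overlap between groups, with a log2 fold change of 0.57 (SE 0.14, limma adjusted p = 0.0294). The remaining AMPA subunit, *Gria1*, a main subunit of the hippocampus, had 2 to 5 reads in control and 2, 4 and 18 reads in the libraries labelled Cre, below the filter.

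The *Gria3* call was held in all 17 alternative fits, with log2 fold changes from 0.80 to 0.95. The *Gria2* call was lost without control replicate 1, 1_1 or 2 or without Cre replicate 2_2 (adjusted p 0.0561 to 0.143), and the *Gria4* call when any single library other than Cre replicate 2 was left out (adjusted p 0.0572 to 0.128). On the scale of normalized counts per kb of exon, the AMPA genes summed to 163 to 181 in control and 249 to 293 in the libraries labelled Cre. *Gria2* made up 57.1 to 62.6% of that sum in control and 53.5 to 60.5% in the libraries labelled Cre, *Gria3* 16.0 to 21.9% and 21.2 to 24.3%, and *Gria4* 19.2 to 20.8% and 18.0 to 21.9%, so the share of each subunit overlapped between the groups. Of 10 astrocyte markers tested, 6 were called higher and none lower, beside 4.74% and 5.22% of all tested genes. The largest rise among them was that of *S100b*, from a mean of 238 in control to 2064 in the libraries labelled Cre (log2 fold change 3.10, limma adjusted p = 7.4e-07). The sum of the 11 genes on the list was 14831 to 16121 in control and 23629 to 27604 in the libraries labelled Cre. *Slc1a3* and *Sox9* were large parts of it, with means of 6060 and 4272 in control and 7408 and 8657 in the libraries labelled Cre. *Aldh1l1* was lower without overlap between the groups, but missed the threshold (log2 fold change -1.65, limma adjusted p = 0.065). *Gfap* had at most 12 reads in any library and was not tested. Of the oligodendrocyte lineage list, 3 of 7 tested rose, beside 4.74% of all tested genes. The list summed to 12900 to 14824 in control and 17819 to 20127 in the libraries labelled Cre. *Olig1* and *Olig2* made up most of this, with means of 7872 and 5157 in control and 8952 and 8380 in the libraries labelled Cre. *Sox10*, *Mog*, *Mag*, *Gpr17* and *Enpp6* were below the filter. The part of either list in the receptor results was not tested. In bulk RNA, a change in the number of cells of a type and a change in RNA per cell cannot be told apart.

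The NMDA genes were split in direction. The channel needs the *Grin1* subunit, joined by *Grin2* subunits that bind glutamate and set the kinetics, or by *Grin3* subunits that bind glycine and lower calcium entry. *Grin2a* (chr16:9567901-9996083) was at 56.0, 45.3 and 60.0 in control and at 9.70, 15.5 and 3.58 in the libraries labelled Cre, from 61, 31 and 45 reads and 14, 18 and 4 reads. No library labelled Cre came near the lowest control library, and the level fell by 2.55 on the log2 scale (SE 0.46, 5.84-fold lower, 95% interval -3.55 to -1.54, limma adjusted p = 0.00598). *Grin2b* (chr6:135713221-136173615) was at 58.7, 48.3 and 57.3 in control and at 13.2, 1.72 and 14.3 in the libraries labelled Cre, the lowest of which held 2 reads. It fell by 2.73 on the log2 scale (SE 0.58, 95% interval -4.01 to -1.45, limma adjusted p = 0.0142). The *Grin2a* call was held in all 16 alternative fits in which it was tested, and the *Grin2b* call was lost when any one control library was left out (adjusted p 0.0571 to 0.0753).

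*Grin3a* (chr4:49661611-49846023) went the other way. It was at 135, 143 and 160 in control and at 206, 274 and 249 in the libraries labelled Cre, which did not overlap. The log2 fold change was 0.72 (SE 0.17, limma adjusted p = 0.0217), and the call was lost without any one control library or without Cre replicate 2_2 (adjusted p 0.0554 to 0.11). *Grin3b* was at 480, 456 and 369 in control and at 294, 393 and 587 in the libraries labelled Cre, with wide overlap. Its log2 fold change was -0.08 (SE 0.22, 95% interval -0.57 to 0.40, limma adjusted p = 0.851), and it is uncertain because 32.1% of its exonic bases lie under a gene on the opposite strand and the library kit (TruSeq RNA Library Prep Kit v2) does not mark strand.

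*Grin1* (chr2:25291177-25319187), without which no NMDA receptor forms, was barely above the filter, at 10.1, 7.31 and 12 in control and at 15.9, 7.75 and 11.6 in the libraries labelled Cre. These overlapped, with a log2 fold change of 0.21 (SE 0.46, 95% interval -0.81 to 1.23, limma adjusted p = 0.817), and 13.5% of its exonic bases are shared with an antisense gene. *Grin2c* had 1 to 7 reads in control and 3 to 14 in the libraries labelled Cre, and *Grin2d* 3 to 10 and 6 to 12. Per kb, *Grin3b* alone held 77.8 to 84.2% of the NMDA sum in control and 80.6 to 89.5% in the libraries labelled Cre, and the family sum overlapped between groups (144 to 176 and 111 to 199). This share and the sum are uncertain, because 32.1% of the exonic bases of *Grin3b* lie under a gene on the opposite strand.

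Kainate receptor genes were mostly at the floor. *Grik5*, which forms channels only together with other kainate subunits, was at 111, 81.9 and 113 in control and at 152, 117 and 65.4 in the libraries labelled Cre. The groups overlapped, with a log2 fold change of 0.06 (SE 0.29, 95% interval -0.58 to 0.69, limma adjusted p = 0.928). *Grik5* held 88.8 to 93.0% of the kainate sum per kb in control and 90.7 to 94.2% in the libraries labelled Cre. The subunits it needs as partners, *Grik1* to *Grik3*, had 0 to 4 reads in each control library and 0 to 9 in each library labelled Cre, and *Grik4* had 6 or 7 reads in control and 0, 4 and 8 in the libraries labelled Cre.

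**Figure D2:**
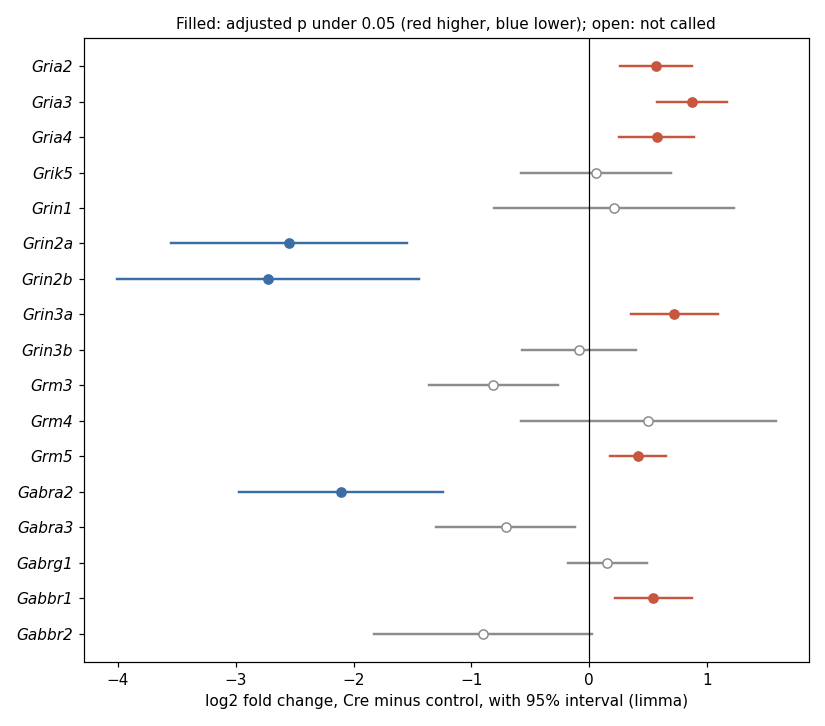
Log2 fold changes of the libraries labelled Cre over control for 17 of the 19 tested receptor genes with 95% intervals from limma, filled where the adjusted p was under 0.05. *Gria3* is at 0.87 and *Grin2a*, *Grin2b* and *Gabra2* at -2.55, -2.73 and -2.11.

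Metabotropic glutamate receptors were led by *Grm5*, a Gq-coupled receptor known from astrocytes and neural progenitors as well as neurons. *Grm5* (chr7:87583981-88135063) was at 2077, 2147 and 2094 in control and at 2677, 2807 and 2951 in the libraries labelled Cre. The control libraries lay close together and below all libraries labelled Cre, with means of 2106.0 ± 36.9 and 2811 ± 137 (SD, n = 3 each), a log2 fold change of 0.42 (SE 0.11) and a limma adjusted p of 0.0331. The call was lost when any single library other than Cre replicate 2 was left out (adjusted p 0.0572 to 0.151). Per kb, *Grm5* held 92.3 to 92.8% of the sum of the 8 metabotropic genes in control and 94.3 to 95.9% in the libraries labelled Cre.

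*Grm3*, a Gi-coupled receptor of astrocytes, was at 59.6, 51.2 and 60.0 in control and at 35.3, 30.1 and 30.4 in the libraries labelled Cre. The groups did not overlap, but the log2 fold change of -0.81 (SE 0.25) missed the threshold (limma adjusted p = 0.0626). It missed it in all 16 alternative fits (adjusted p 0.0524 to 0.213) and passes at the looser threshold of 0.1. *Grm4*, also Gi-coupled, was at 11.0, 27.8 and 20.0 in control and at 13.2, 48.2 and 28.7 in the libraries labelled Cre (log2 fold change 0.50, SE 0.49, limma adjusted p = 0.574). Its libraries overlapped between the groups. *Grm2*, *Grm6* and *Grm8* had no read in any library, which allows 3 reads each, or 2.08 to 4.39 normalized counts depending on the library, and *Grm7* had 0 or 1 read in control and 2 in each library labelled Cre.

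Among GABA receptors, the alpha subunit *Gabra2* fell. The alpha subunits form the GABA site with beta subunits, and with a gamma subunit the site of benzodiazepines. *Gabra2* (chr5:70958392-71095849) was at 82.6, 51.2 and 62.7 in control and at 23.5, 7.75 and 15.2 in the libraries labelled Cre. The highest library labelled Cre stayed below the lowest control library, with a fall of 2.11 on the log2 scale (SE 0.40, 4.30-fold lower, 95% interval -2.97 to -1.24, limma adjusted p = 0.00741). The call was held in 15 of 16 alternative fits and lost without control replicate 1 (adjusted p = 0.0557). *Gabrg1* is the neighbour of *Gabra2* in a cluster that also holds *Gabra4* and *Gabrb1* (chr5:70751047-70842617 for *Gabrg1*), and was at 585, 632 and 572 in control and 814, 653 and 549 in the libraries labelled Cre. It overlapped between groups, with a log2 fold change of 0.16 (SE 0.15, 95% interval -0.18 to 0.49, limma adjusted p = 0.575). Of the other genes of this cluster, *Gabra4* had no read and *Gabrb1* had 3 reads in each control library and 10, 10 and 5 in the libraries labelled Cre. As normalized counts, *Gabrb1* was at 2.75, 4.39 and 4.00 in control and at 6.93, 8.61 and 4.48 in the libraries labelled Cre.

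*Gabra3*, another alpha subunit, was at 53.2, 42.4 and 58.7 in control and at 26.3, 33.6 and 33.1 in the libraries labelled Cre. The groups did not overlap, but the log2 fold change of -0.71 (SE 0.27, 95% interval -1.30 to -0.12, limma adjusted p = 0.125) did not pass the threshold.

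Other GABA-A genes were near 0. *Gabra5*, *Gabra6*, *Gabrd* and *Gabrr3* had no read in any library. *Gabrb2*, *Gabrg3*, *Gabrp*, *Gabrq* and *Gabrr1* had at most 1 read per library, *Gabrr2* had none in control and 2, 3 and 1 in the libraries labelled Cre, and *Gabre* had 2 to 6 and 0 to 5. Per kb, *Gabrg1* held 66.7 to 73.8% of the GABA-A sum in control and 85.6 to 86.7% in the libraries labelled Cre, while *Gabra2* held 11.9 to 18.8% and 2.03 to 5.00%, and neither pair of ranges overlapped.

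The GABA-B receptor genes differed from each other. *Gabbr1* (chr17:37045966-37074305), which binds GABA, was at 453, 440 and 493 in control and at 562, 681 and 801 in the libraries labelled Cre. The groups did not overlap, and the log2 fold change was 0.55 (SE 0.15, 95% interval 0.22 to 0.87, limma adjusted p = 0.0412). The call was lost when any single library other than Cre replicate 2 was left out (adjusted p 0.0887 to 0.154). *Gabbr2*, which carries the signal to the G protein and brings its partner to the cell surface, was at 29.4, 20.5 and 30.7 in control and at 15.2, 7.75 and 21.5 in the libraries labelled Cre. These overlapped, with a log2 fold change of -0.90 (SE 0.42, 95% interval -1.82 to 0.03, limma adjusted p = 0.21). Per kb, *Gabbr1* held 92.1 to 94.2% of the GABA-B sum in control and 96.5 to 98.5% in the libraries labelled Cre.

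Compared per kb of exon in control, *Grm5* stood first at 260.9 ± 4.6 (SD, n = 3), ahead of *Grin3b* at 132.1 ± 17.7 and *Gabrg1* at 125.0 ± 6.6, whose control libraries overlapped. *Gria2* followed at 103 ± 10 and *Gabbr1* at 59.3 ± 3.6. The place of *Grin3b* in this order is uncertain, because 32.1% of its exonic bases lie under a gene on the opposite strand. *Gria4*, *Gria3*, *Gabra2* and *Grik5* lay between 34.6 and 26.6, each overlapping the next in the order. *Grm3*, *Gabra3*, *Grin2a* and *Grin3a* lay between 15.9 and 9.26, also overlapping in turn, and *Grin2b*, *Gabbr2*, *Grm4* and *Grin1* between 6.70 and 1.01.

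**Figure D3:**
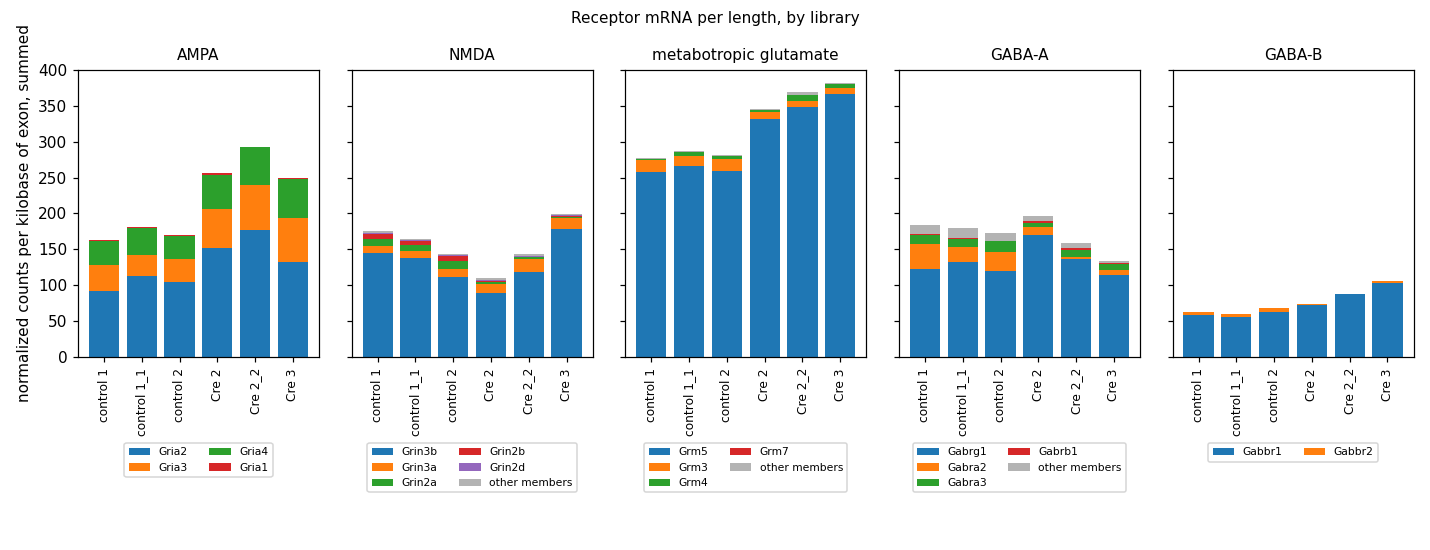
Summed normalized counts per kb of exon in the 6 libraries, stacked by gene, for the AMPA, NMDA, metabotropic glutamate, GABA-A and GABA-B families. *Gria2*, *Grm5* and *Gabrg1* are the largest blocks of the AMPA, metabotropic glutamate and GABA-A families, and the AMPA sums are 163 to 181 in control and 249 to 293 in the libraries labelled Cre.

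Genes that make, carry, clear or anchor glutamate, GABA and their receptors formed a list of 66, of which 45 were tested. Of these, 5 rose and 4 fell, beside 4.74% and 5.22% of all tested genes. The median log2 fold change of the 45 was 0.08. The same shares of all tested genes stand beside the counts by role that follow. Among glutamate transport and metabolism genes, 2 rose and 1 fell of 10 tested. *Slc1a2*, the glial glutamate transporter that clears most synaptic glutamate, was at 518, 570 and 464 in control and 1104, 1109 and 1267 in the libraries labelled Cre (log2 fold change 1.16, limma adjusted p = 0.000382). *Slc1a5*, a transporter of glutamine and other neutral amino acids, fell by 1.15 on the log2 scale, from 205 ± 18 to 92.5 ± 12 (SD, n = 3 each, limma adjusted p = 0.00301). Both calls were held in all 17 alternative fits. *Glul*, glutamine synthetase of astrocytes, rose by 0.52 on the log2 scale (limma adjusted p = 0.016), and *Abat*, the GABA transaminase and the 1 gene called of 5 tested for GABA synthesis, transport and breakdown, by 0.85 (limma adjusted p = 0.0153). Both of these were lost without any one control library or without Cre replicate 2_2 (adjusted p 0.0562 to 0.0846). *Slc1a2* and *Glul* are also on the astrocyte list.

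Of the auxiliary AMPA and kainate subunits, 8 of 14 were tested, none rose and *Cacng5*, a transmembrane AMPA regulatory protein, fell by 2.08 on the log2 scale (from 67.8 ± 7.2 to 16.3 ± 7.6, SD, n = 3 each, limma adjusted p = 0.00477). Of the delta receptors, 1 was tested, and this gene, *Grid1*, rose by 1.31 (from 48.7 ± 5.2 to 124.5 ± 30.5, SD, n = 3 each, limma adjusted p = 0.00691). Of 12 excitatory scaffold genes tested, *Dlg4*, which encodes PSD-95, fell by 0.96 (limma adjusted p = 0.00922) and *Homer2*, which links group I metabotropic receptors to calcium stores, by 0.60 (limma adjusted p = 0.0228). *Dlg4* was lost without control replicate 1_1 or 2 (adjusted p 0.0507 to 0.0586) and *Homer2* without control replicate 1 or 2 (adjusted p 0.106 to 0.111).

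Of 6 tested inhibitory scaffold and GABA-A partner genes, *Gabarap*, a GABA-A receptor binding protein also used in autophagy, rose by 0.51 (limma adjusted p = 0.0353), a call that was lost when any single library other than Cre replicate 2 was left out (adjusted p 0.0728 to 0.18). The 2 chloride cotransporters, which set whether GABA excites or inhibits, and the 1 tested glycine receptor gene did not pass the threshold, and all 4 vesicular transporters were below the filter.

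**Figure D4:**
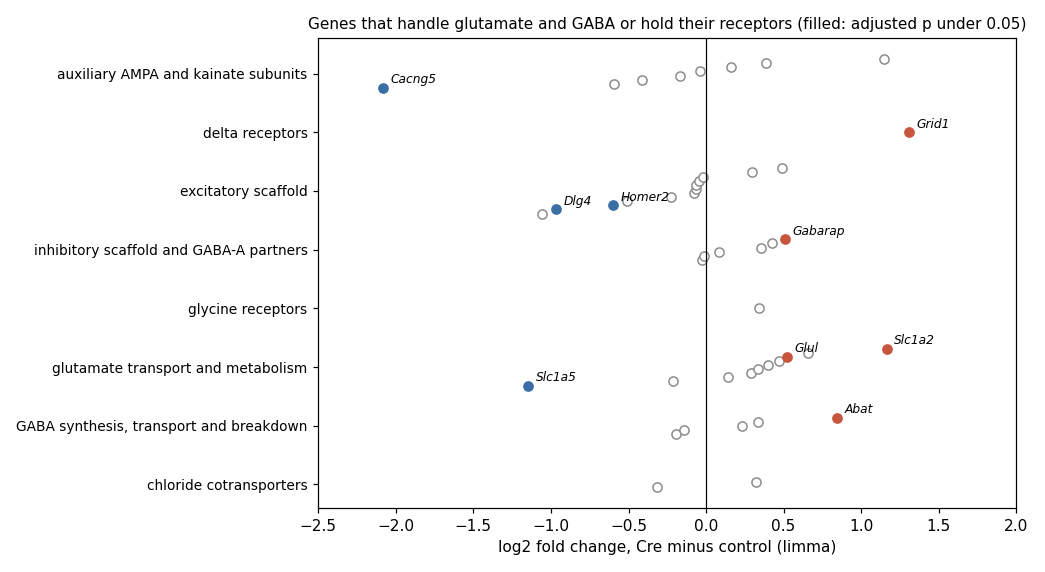
Log2 fold changes of the libraries labelled Cre over control for the 45 tested companion genes, grouped by role, filled where the limma adjusted p was under 0.05. *Slc1a2* is at 1.16, *Grid1* at 1.31, *Slc1a5* at -1.15 and *Cacng5* at -2.08.

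Region and sex-linked markers also differed between the groups. *Dlx1*, an interneuron progenitor gene of the ventral telencephalon, was at 265, 208 and 293 in control and at 0, 10.3 and 11.6 in the libraries labelled Cre (log2 fold change -5.60, limma adjusted p = 0.00133). The 6 genes of its list summed to 215 to 307 and 0.69 to 13.4, and *Dlx1* made up most of this sum in control. *Dlx2* had 13, 3 and 8 reads in control and 1, 0 and 0 in the libraries labelled Cre. *Lhx6* had no read, and *Dlx5*, *Nkx2-1* and *Gsx2* had at most 2 reads in any library. *Gabra2*, *Grin2a* and *Grin2b* were also called lower in this comparison, as were 5.22% of all tested genes. *Xist* was at 56.0, 67.3 and 64.0 in control and at 5.54, 2.58 and 5.37 in the libraries labelled Cre (log2 fold change -3.58, limma adjusted p = 0.000342). Transcripts of Y-linked genes were present in all 6 libraries. Of these, *Eif2s3y* was called higher (log2 fold change 0.61, limma adjusted p = 0.0282), while *Ddx3y*, *Kdm5d* and *Uty* were not called (0.09, 0.10 and 0.46). The part of these markers in the receptor results was not tested, and a difference in regional or sex makeup between the cultures of the groups cannot be told apart from the treatment.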

How the data were processed

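RNA-seq values of 6 libraries were analysed. The authors prepared the libraries with the TruSeq RNA Library Prep Kit v2, which does not mark strand, and aligned the reads with TopHat (mm9 and mm10) in their methods or STAR 2.7 to mm10 in the submitters' processing notes, and normalized the counts with DESeq2. The read counter, its strand setting and the annotation are not given in the sources used here. The deposited values are a signal per gene, that is, counts scaled by a size factor for each library. Columns of the authors' own comparison (mean, log2 fold change, standard error, statistic, p-value and adjusted p-value) were not used. Of 53379 genes, 873 have no name and 1, without a value in 1 library, was left out. Reads were recovered as whole multiples of the lowest step, 100% of them within 0.001.

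limma 3.58.1 in R 4.3.3 (lmFit and eBayes with trend) was fitted to log2(normalized count + 1) for 14840 genes with a mean of at least 10, two-sided, with Benjamini-Hochberg adjustment at 0.05. Fold changes are on that scale. Alternatives were count tests on recovered reads (edgeR 4.0.16, DESeq2 1.42.0), other pseudocounts (0.5, 5), testing without the filter, a mean of at least 50, TMM and total-count scaling, averaging like-numbered libraries (1 with 1_1, 2 with 2_2), an adjusted p under 0.1 and leaving out each library. Counts of alternative fits do not include the threshold of 0.1. A simulation of this comparison, in which 200 of 14840 genes differed 2-fold, returned 56.5% of the 200 with limma, 58.0% with edgeR and 65.0% with DESeq2. Of the genes called in it, 3.4%, 2.5% and 5.8% were not among the 200. Its spread was estimated from these same libraries.

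Members are named, with values per library for those tested, except a few genes that are not reported here singly but are part of the counts and sums. Companion genes are named when past 0.05, at most the 3 largest per role. The members and lists were chosen with earlier results of these data known. Exon lengths and overlaps came from GENCODE M1 (mm9), positions and promoters from RefSeq GRCm38.p6. In 3 libraries per group no pair was as alike as sampling noise (chi-square per degree of freedom 5.85 to 36), so none were merged. Figures used matplotlib 3.10.9.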

Additional observations from a re-analysis of the deposited data

How the results depend on the processing

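The 9 receptor genes called became 3 with control replicates 1 and 1_1 averaged, 4 with both like-numbered pairs averaged, and 2 to 10 when single libraries were left out. Averaging the controls ended the calls of *Gria2*, *Gria4*, *Grin2b*, *Grin3a*, *Grm5* and *Gabbr1*, averaging both pairs those of the same genes except *Grin2b*, and testing without the filter that of *Grm5*. The genes called higher became 1 under each averaging that included the controls and 1 to 6 without single libraries. The genes called lower became 0 of 9 tested at a mean of at least 50, which removed *Grin2a*, *Grin2b* and *Gabra2* from the test, 5 at an adjusted p under 0.1 (*Grm3* was one of those added), and 1 to 4 without single libraries. Over all genes the 1478 calls became 660 with the controls averaged, 885 with both pairs averaged, 2380 at an adjusted p under 0.1 and 558 to 2396 without single libraries. Companion genes went from 9 to 5 with the controls averaged and to 4 to 11 without single libraries. The log2 fold change of *Grik5* turned to -0.11 with Cre replicates 2 and 2_2 averaged and to -0.16 with both pairs averaged, and ran from -0.21 to 0.40 without single libraries. That of *Grin3b* turned to 0.054 and 0.11 under the same averagings and ran from -0.35 to 0.15 without single libraries. That of *Grin1* ran from -0.015 to 0.46 without single libraries. None of these 3 genes was called in any alternative fit, and the cause of the changes was not tested. Of the 313 changes of single genes under alternative fits, 262 kept direction and side of the threshold, 39 lost the call, 3 gained it and 9 turned. TMM and total-count scaling moved the median log2 fold change of all genes by at most 0.0064. No paired analysis was possible because the groups share only replicate number 2.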

Other observations

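Of the 26 receptor genes below the filter, 17 had a read in some library, and a fit without the filter tested these too. None was called, where 5.23% of 27585 genes were, and 1, *Gabrr2* (0, 0 and 0 reads in control and 2, 3 and 1 in the libraries labelled Cre), had an unadjusted p under 0.05 (0.018, limma adjusted p = 0.164). Among genes of the dorsal cortex, named after their values were seen, *Eomes* had 0, 1 and 0 reads in control and 13, 12 and 14 in the libraries labelled Cre, and *Neurog2* had no read in control and 7, 23 and 22, while *Emx2*, the only one tested, was at 422, 382 and 421 normalized counts in control and 407, 293 and 259 in the libraries labelled Cre (log2 fold change -0.38, SE 0.17, limma adjusted p = 0.198), and *Tbr1* and *Emx1* had at most 1 read in any library and *Neurod6* had none.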
